A study of Arabidopsis thaliana with 28 samples.

Results

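The RALF-like (RALFL) genes of Arabidopsis thaliana encode rapid alkalinization factors, and 11 of them were followed here over the hours after a short drying treatment. They were taken as the probe sets whose only annotated gene has a symbol made of RALFL and a number, which holds for 11 of the 22746 probe sets on the array that are not controls. The 11 genes are RALFL18, RALFL22, RALFL24, RALFL25, RALFL26, RALFL27, RALFL28, RALFL31, RALFL32, RALFL33 and RALFL34, each with 1 probe set. The TAIR10.1 gene table lists 34 genes with a RALF symbol, and the others, RALF1 and RALF23 among them, are not analysed here. Of the 11 probe sets, 7 were bright enough to be tested and 4 (RALFL18, RALFL25, RALFL26 and RALFL28) were not.

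RALF peptides are small, secreted and rich in cysteine, and many are cut from a longer precursor by the site-1 protease S1P. They are sensed at the cell surface by receptor kinases of the CrRLK1L family, of which FERONIA (FER) and THESEUS1 (THE1) are members, together with co-receptors of the LORELEI family. They also bind leucine-rich repeat extensins in the cell wall. The family is named for the rise of pH outside the cell that the peptides cause, and is known for restraining cell expansion, for keeping pollen tubes intact and for tuning immune and salt responses.

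The plants were the wild-type accession Col-0, 16 days old, and all of them were dried, so the series has no untreated array. For all of them the labels give a day length of 16 h, a temperature of 24 °C and a humidity of 50%. Drying began 3 h into the light and consisted of 15 min in a stream of dry air, up to a loss of 10% of fresh weight, after which the plants stood in closed vessels. Shoots and roots were collected at 0.25, 0.5, 1, 3, 6, 12 and 24 h and hybridised to ATH1 arrays, with 2 arrays per tissue and time and 28 in all. The earliest time, 0.25 h, was the reference in each tissue, and time after drying cannot be told apart from time of day except near 24 h, which returns to about the clock time of 0.25 h. No label states that replicates were grown as separate cultures. The p-values thus rest on the spread between arrays within groups, estimated over all 14 groups together. This spread may be technical.

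Values are MAS5 signals, which have no unit, are scaled to a common level on each array and can be compared between arrays for 1 probe set but not between probe sets. Array medians were 36.6 to 40.3 for shoots and 43.1 to 46.7 for roots. The 2 arrays of a group correlated at 0.976 to 0.985 in 12 groups, and at 0.953 and 0.955 in the shoots of 0.5 h and 1 h. In those 2 groups each array was closest to an array of the other time, so that replicate 1 of 0.5 h went with replicate 2 of 1 h and replicate 2 of 0.5 h with replicate 1 of 1 h. RCA, the rubisco activase of photosynthetic tissue, had signals of 4347 to 6313 in shoots and 69.4 to 274 in roots, and EXPA7, an expansin of root hairs, 1.34 to 17.4 in shoots and 23.7 to 57.6 in roots. Each was the only one of 10 markers of its tissue found among the probe sets annotated with 1 gene, so the tissue labels were checked on 1 gene each. In the annotation used 8730 probe sets carry no gene and 503 carry several.

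RALFL22, RALFL24 and RALFL33 fell in shoots at 3 h and 6 h, and RALFL22 and RALFL24 were still lower at 12 h. Across the 7 tested genes and 6 later times, 14 of 42 comparisons with 0.25 h passed the test in shoots, 13 of them lower and 1 higher. Over all tested probe sets 19.3% of the shoot comparisons passed. In roots 7 of 42 comparisons passed, 3 higher and 4 lower, against 5.94% over all tested probe sets. The comparisons within a tissue share the 2 reference arrays and are not independent of each other. The 42 shoot comparisons include those of RALFL27, whose shoot signals were too low to be measured. The test was limma's moderated test on log2(signal + 1.93), two-sided, with Benjamini-Hochberg adjustment over the 18190 tested probe sets within each comparison and a threshold of 0.05, and log2 changes are on that scale with standard errors from the model. In whole shoots or roots, fewer cells of a type and less RNA per cell cannot be told apart.

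**Figure D1:**
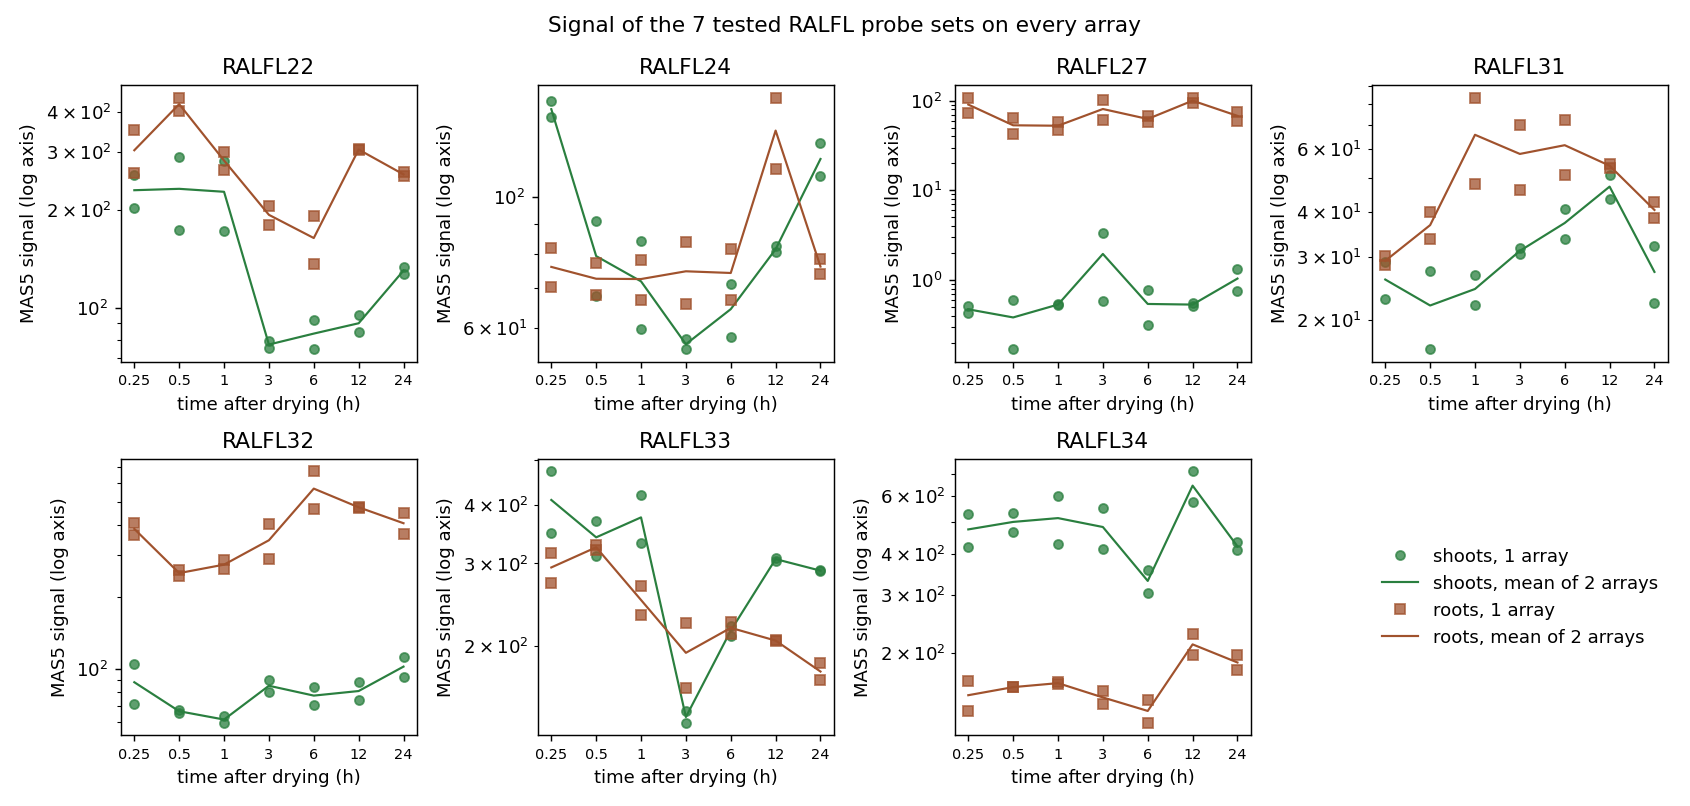
Signal of each of the 7 tested RALFL probe sets (vertical axis, log scale, no unit) on every array against hours after drying, with shoots and roots in different colours, points for single arrays and lines through the group means. RALFL22 and RALFL33 dip at 3 h in shoots, RALFL24 is below its 0.25 h signal from 0.5 h to 12 h in shoots, and RALFL27 stays below 4 in shoots on all 14 arrays.

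RALFL22 (AT3G05490) encodes a peptide that binds leucine-rich repeat extensins and signals through FERONIA. In shoots its signal was 203 and 257 at 0.25 h, 174 and 290 at 0.5 h, 282 and 172 at 1 h, 79.0 and 75.4 at 3 h, 92.1 and 74.8 at 6 h, 95.0 and 84.5 at 12 h, and 134 and 127 at 24 h. The 6 arrays of 3 h to 12 h all lay below the 8 arrays of the other times, and the 24 h arrays lay between these and the arrays of the first hour. RALFL22 fell by 1.54 ± 0.23 (SE, n = 2 arrays against 2) on the log2 scale at 3 h, with a limma adjusted p of 5.06e-05. At 6 h and 12 h the log2 changes were -1.44 and -1.33, with limma adjusted p of 7.04e-05 and 0.000254. At 24 h the change was -0.80 with an adjusted p of 0.0311, so the signal was still lower than at 0.25 h. This last call rested on single arrays, since RALFL22 had an adjusted p of 0.0557 and 0.212 without replicate 1 or 2 of 0.25 h and of 0.0863 and 0.17 without replicate 1 or 2 of 24 h. At 0.5 h and 1 h the 2 arrays of each time lay on both sides of the reference, with changes of -0.02 and -0.05. The calls at 3 h, 6 h and 12 h were kept in each of the 28 fits with 1 array left out.

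In roots RALFL22 had signals of 350 and 259 at 0.25 h, 442 and 401 at 0.5 h, 265 and 302 at 1 h, 206 and 180 at 3 h, 191 and 137 at 6 h, 308 and 304 at 12 h, and 260.5 and 253 at 24 h. The highest signals were at 0.5 h and the lowest at 3 h and 6 h. Only the fall at 6 h passed the test, with a log2 change of -0.89 ± 0.23 and a limma adjusted p of 0.0177. Without roots 0.25 h replicate 1 the RALFL22 change at 6 h was -0.67 (adjusted p = 0.214), and without roots 6 h replicate 2 it was -0.65 (adjusted p = 0.215). The values at 3 h (-0.64, adjusted p = 0.151) and 0.5 h (0.48, adjusted p = 0.267) did not pass. By 12 h the root signal was back between the 2 reference arrays while the shoot signal was not, and the root change exceeded the shoot change by 1.35 ± 0.33 (limma adjusted p = 0.00813).

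RALFL33 (AT4G15800) encodes a peptide that, with RALF23, dampens immune responses through FERONIA. Its shoot signal was 348 and 472 at 0.25 h, 312 and 370 at 0.5 h, 421 and 332 at 1 h, 137 and 145 at 3 h, 210.3 and 221 at 6 h, 309 and 304 at 12 h, and 288 and 291 at 24 h. The 2 arrays of 3 h were the lowest of the 14, the 2 arrays of 6 h the next lowest, and at 12 h and 24 h both arrays were below both reference arrays. RALFL33 fell by 1.51 ± 0.15 on the log2 scale at 3 h (limma adjusted p = 6.54e-07), from a mean of 410.2 to 141, and by 0.91 at 6 h (adjusted p = 0.000122). Both of these calls were kept with each of the 28 arrays left out in turn. The 12 h change of -0.40 had an adjusted p of 0.0603, and the 24 h change of -0.48 passed with 0.0487. The 24 h call was lost in 21 of the 28 fits with an array left out, and the RALFL33 change moved to -0.26 (adjusted p = 0.436) without shoots 0.25 h replicate 2.

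The root signal of RALFL33 was 316 and 272 at 0.25 h, 321 and 329 at 0.5 h, 233 and 268 at 1 h, 163 and 224 at 3 h, 225 and 212 at 6 h, 206 and 205 at 12 h, and 169 and 183 at 24 h. From 1 h on, all 10 root arrays were below both arrays of 0.25 h. The falls at 3 h (-0.62 ± 0.15), 12 h (-0.51) and 24 h (-0.73) passed with limma adjusted p of 0.0288, 0.0462 and 0.0111, whereas 6 h gave -0.42 with an adjusted p of 0.0879. None of the 3 was kept in every fit. For RALFL33 without roots 0.25 h replicate 1 the 3 h change was -0.51 (adjusted p = 0.302) and the 24 h change -0.62 (adjusted p = 0.172). Without roots 3 h replicate 1 the 3 h change of RALFL33 was -0.39 (adjusted p = 0.31), without roots 24 h replicate 1 the 24 h change was -0.67 (adjusted p = 0.133), and the 12 h call was lost in 18 of 28 such fits. Against the mean of 0.25 h and 24 h as the reference, the root changes of RALFL33 at 3 h and 12 h were -0.25 (adjusted p = 0.332) and -0.15 (adjusted p = 0.617). The root change at 3 h was smaller in size than the shoot change, by 0.90 ± 0.22 (limma adjusted p = 0.0116). That difference lost its call without shoots 0.25 h replicate 2 (0.68, adjusted p = 0.0634), roots 0.25 h replicate 2 (0.79, adjusted p = 0.0535) or roots 3 h replicate 2 (0.67, adjusted p = 0.0692).

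RALFL24 (AT3G23805) already had a low shoot signal at the second time. Its shoot arrays gave 136 and 145 at 0.25 h, 90.9 and 67.8 at 0.5 h, 59.8 and 84.0 at 1 h, 55.2 and 57.4 at 3 h, 58.0 and 71.1 at 6 h, 82.4 and 80.5 at 12 h, and 123 and 108 at 24 h. Every array from 0.5 h to 12 h lay below 100, and those of 0.25 h and 24 h above it. The log2 change (SE 0.18 at each time) from 0.5 h to 12 h was, in order of time, -0.82, -0.97, -1.29, -1.11 and -0.77, and these 5 falls passed the limma test with adjusted p of 0.00975, 0.00372, 3.18e-05, 0.000108 and 0.00409. At 24 h the value was -0.28 (adjusted p = 0.388). The calls of 3 h to 12 h were kept in each of the 28 fits with 1 array left out. With the 4 arrays of 0.5 h and 1 h taken as 1 group the early RALFL24 change was -0.90 (limma adjusted p = 0.000882). Single arrays mattered for the early calls as labelled: at 0.5 h RALFL24 gave -0.78 (adjusted p = 0.076) without shoots 0.25 h replicate 2 and -0.62 (adjusted p = 0.13) without shoots 0.5 h replicate 2, and at 1 h -0.73 (adjusted p = 0.0851) without shoots 1 h replicate 1.

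In roots RALFL24 stayed near its first signal until 12 h. The root arrays gave 81.8 and 70.4 at 0.25 h, 68.1 and 77.2 at 0.5 h, 78.1 and 67.0 at 1 h, 83.7 and 65.9 at 3 h, 66.9 and 81.7 at 6 h, 112 and 147 at 12 h, and 74.0 and 78.3 at 24 h. The 12 h arrays were above all 12 others, and the other times overlapped. The rise at 12 h was 0.74 ± 0.18 (limma adjusted p = 0.0172), and it was lost for RALFL24 without roots 0.25 h replicate 1 (0.85, adjusted p = 0.0503), roots 0.25 h replicate 2 (0.64, adjusted p = 0.129) or roots 12 h replicate 2 (0.55, adjusted p = 0.225). At 3 h, 6 h and 12 h the root change exceeded the shoot change by 1.26 ± 0.26, 1.07 and 1.51, with limma adjusted p of 0.00436, 0.00758 and 0.000698, and these 3 differences were kept with each array left out. Across genes and times, 5 of 42 such differences passed, all toward roots, and 8.64% passed over all tested probe sets. The 42 include those of RALFL27, which had no measured level in shoots. The other 2 were RALFL22 at 12 h and RALFL33 at 3 h. Toward roots, 4.96% of all tested probe sets passed at 3 h, 7.92% at 6 h and 7.20% at 12 h, where 2, 1 and 2 of the 7 genes did. At 0.5 h, 1 h and 24 h none of the 7 genes passed this test, and 2.12%, 2.98% and 3.23% of all tested probe sets passed in either direction.

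**Figure D2:**
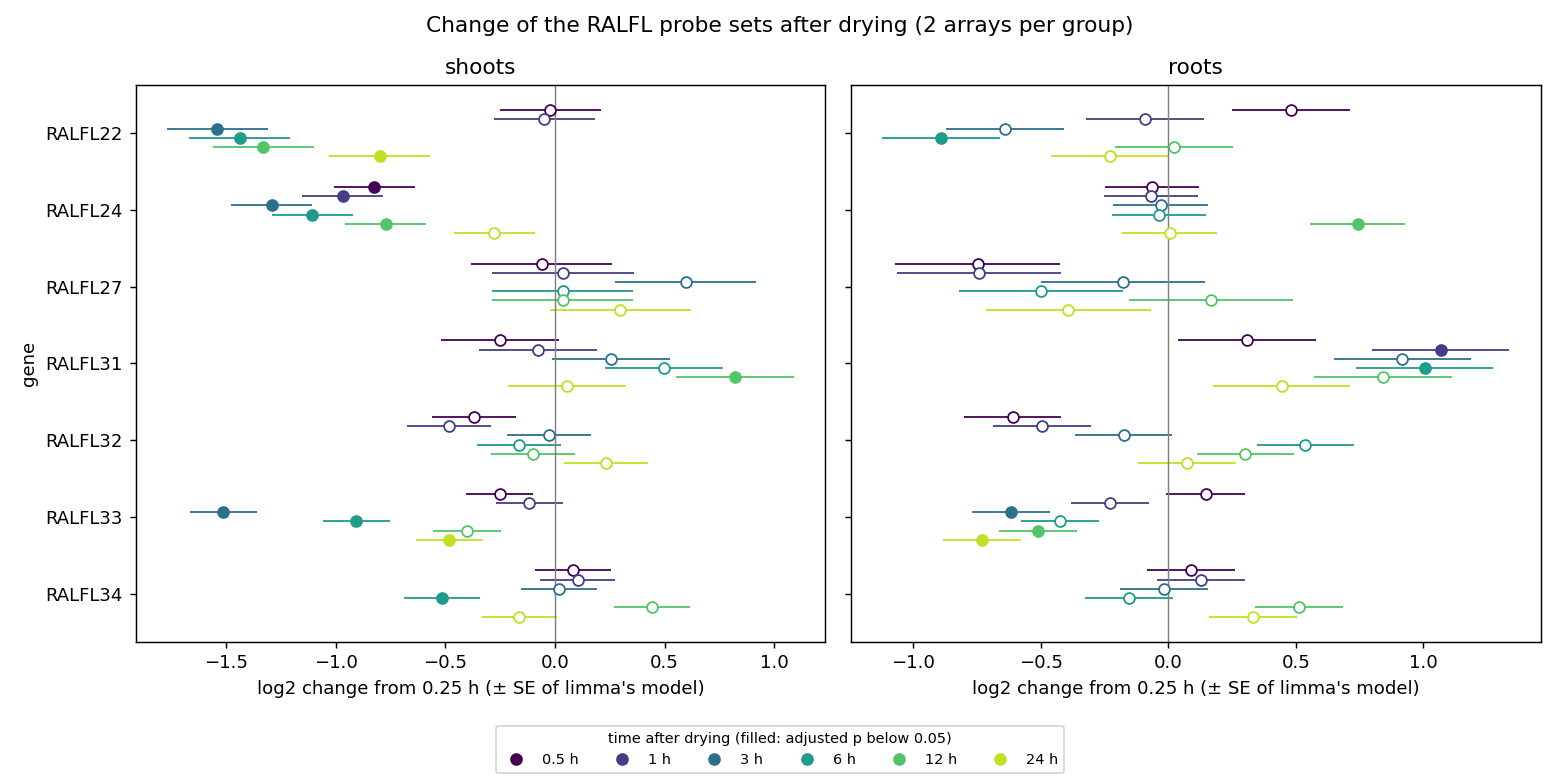
Log2 change from 0.25 h (horizontal axis, log2 of signal + 1.93, ± SE of limma's model) for each tested RALFL gene in shoots and roots, 1 colour per time, with filled points for an adjusted p below 0.05. RALFL22, RALFL24 and RALFL33 reach -1.54, -1.29 and -1.51 at 3 h in shoots, and no RALFL change in roots is below -0.89.

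By time, the counts stand as follows against the share of all tested probe sets that passed in the same direction. In shoots 1 of 7 genes fell at 0.5 h and 1 at 1 h, where 2.85% and 3.13% of all probe sets fell. At 3 h 3 of 7 fell (13.9% of all), at 6 h 4 of 7 (15.8%), at 12 h 2 of 7 (11.7%) and at 24 h 2 of 7 (5.63%). The median change over the 7 genes was -0.03 at 3 h and -0.51 at 6 h, beside -0.02 and 0.01 over all tested probe sets, so the 3 h falls were not shared by most of the 7 genes. In roots none of the 7 passed at 0.5 h, where 4.81% of all tested probe sets passed in either direction. Upward, 1 of 7 genes passed at 1 h (3.48% of all), 1 at 6 h (5.32%) and 1 at 12 h (3.62%). Downward, 1 of 7 passed at 3 h (1.83% of all), 1 at 6 h (5.01%), 1 at 12 h (4.26%) and 1 at 24 h (1.71%). Over the whole time course (F test across the 6 comparisons), 5 of 7 genes passed in shoots and 5 of 7 in roots, beside 50.4% and 27.6% of all tested probe sets. RALFL27 (adjusted p = 0.491) and RALFL32 (0.054) missed it in shoots, and RALFL27 (0.154) and RALFL34 (0.0601) in roots. RALFL27 entered the test through its root arrays alone, and none of its 14 shoot arrays exceeded the 30th percentile. It is counted in the 7 genes and the medians for shoots, but its missing calls there do not show an unchanged level.

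RALFL34 (AT5G67070), a ligand of THESEUS1 known from lateral root initiation, was the gene with the clearest excess in shoots. Its shoot signal was 421 and 529 at 0.25 h, 534 and 467 at 0.5 h, 600.2 and 427 at 1 h, 414 and 551 at 3 h, 357 and 305 at 6 h, 714 and 577 at 12 h, and 433 and 409 at 24 h. The 6 h arrays were the lowest of the 14 and 1 of the 12 h arrays the highest. The fall at 6 h was -0.51 ± 0.17 (limma adjusted p = 0.0269), and the value at 12 h was 0.44 (adjusted p = 0.0652). Without shoots 0.25 h replicate 2 the RALFL34 change at 6 h was -0.35 (adjusted p = 0.241) and without shoots 6 h replicate 2 it was -0.40 (adjusted p = 0.193). In roots the signal was 164 and 132 at 0.25 h, 157 and 157 at 0.5 h, 160.3 and 162 at 1 h, 153 and 139 at 3 h, 122 and 143 at 6 h, 227 and 196 at 12 h, and 196 and 176 at 24 h. No root change passed, and the value at 12 h was 0.51 (adjusted p = 0.0783), with both arrays above both reference arrays.

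RALFL31 (AT4G13950) moved upward in both tissues, from low signals. In shoots it gave 29.0 and 22.9 at 0.25 h, 16.6 and 27.4 at 0.5 h, 22.1 and 26.8 at 1 h, 31.9 and 30.5 at 3 h, 33.8 and 40.9 at 6 h, 43.5 and 50.8 at 12 h, and 32.2 and 22.4 at 24 h. The 12 h arrays were the highest, and RALFL31 was the only 1 of the 7 genes to pass upward in shoots, with 0.82 ± 0.27 at 12 h (limma adjusted p = 0.0298), where 14.7% of all tested probe sets rose. In roots it gave 30.2 and 28.4 at 0.25 h, 33.7 and 40.0 at 0.5 h, 48.0 and 83.7 at 1 h, 46.2 and 70.2 at 3 h, 50.9 and 72.3 at 6 h, 54.7 and 53.2 at 12 h, and 42.8 and 38.5 at 24 h. All 12 later root arrays were above both reference arrays, with wide gaps between the 2 arrays of 1 h, 3 h and 6 h. The rises at 1 h (1.07 ± 0.27) and 6 h (a mean of 61.6 against 29.3 at 0.25 h) passed with limma adjusted p of 0.0222 and 0.0214, and 3 h (0.92) and 12 h (0.84) missed with 0.0671 and 0.0628.

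All 3 RALFL31 calls depended on single arrays. The shoot change at 12 h was 0.66 (adjusted p = 0.186) without shoots 0.25 h replicate 2, 0.93 (adjusted p = 0.0636) and 0.71 (adjusted p = 0.166) without replicate 1 or 2 of 12 h, and 0.75 (adjusted p = 0.0713) after quantile normalization of all arrays. The root change at 1 h was 1.11 (adjusted p = 0.114) and 1.03 (adjusted p = 0.095) without replicate 1 or 2 of roots 0.25 h, and 0.68 (adjusted p = 0.328) without roots 1 h replicate 2. At 6 h RALFL31 gave 1.04 (adjusted p = 0.0978) and 0.96 (adjusted p = 0.0976) without replicate 1 or 2 of roots 0.25 h, and 0.76 (adjusted p = 0.225) without roots 6 h replicate 2.

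RALFL32 (AT4G14010) was far brighter in roots. Its root signal was 363 and 409.5 at 0.25 h, 259 and 246 at 0.5 h, 262 and 285 at 1 h, 288 and 404 at 3 h, 466 and 674 at 6 h, 478 and 474 at 12 h, and 367 and 449 at 24 h. The arrays of 0.5 h and 1 h were all below the 0.25 h arrays and those of 6 h and 12 h all above them. The time course passed the F test in roots (limma adjusted p = 0.00141), but no single time did, where the values nearest to it were -0.61 ± 0.19 at 0.5 h and 0.54 at 6 h, with adjusted p of 0.0763 and 0.0829. In shoots the signal ran from 59.3 to 112 with a lowest group at 1 h and a highest at 24 h, and the largest change, -0.48 at 1 h, had an adjusted p of 0.13.

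RALFL27 (AT3G29780) was measured in roots and lay at the bottom of the scale in shoots. Its root signal was 72.7 and 109 at 0.25 h, 63.8 and 42.7 at 0.5 h, 58.0 and 47.3 at 1 h, 101 and 61.0 at 3 h, 67.5 and 57.7 at 6 h, 94.1 and 106 at 12 h, and 59.8 and 75.8 at 24 h. Groups next to each other in order of mean signal overlapped throughout, and no change passed the test. In shoots the 14 signals ran from 0.169 to 3.32 and none exceeded its array's 30th percentile, so changes with time in shoots have no measured level on either side.

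Averaged over the 7 times, 5 of the 6 genes with signal above the 30th percentile in both tissues differed between roots and shoots, 3 higher in roots and 2 higher in shoots, where 87.0% of all tested probe sets differed, 55.4% higher in roots and 31.6% higher in shoots. The median over all tested probe sets was itself 0.29 higher in roots on the log2 scale (0.16 after quantile normalization of all arrays), so each value is also given relative to that median. RALFL27 entered the test through its root arrays alone, so its tissue difference is no result of the test. Its root signal was at least 5.48-fold higher, from the mean log2 signal of 14 root arrays against that of the 30th percentiles of the 14 shoot arrays. RALFL32 was 2.21 ± 0.07 higher in roots (1.92 relative), RALFL22 0.95 ± 0.09 (0.66 relative) and RALFL31 0.64 ± 0.10 (0.35 relative). RALFL34 was lower in roots by 1.53 ± 0.07 (-1.82 relative) and RALFL33 by 0.28 ± 0.06 (-0.57 relative). RALFL24 gave -0.05 ± 0.07 (adjusted p = 0.543), and after quantile normalization of all arrays RALFL24 was called lower in roots (-0.20, adjusted p = 0.0105).

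At single times the order of the tissues was stable for some genes and not for others. For RALFL27 and RALFL32 both root arrays were above both shoot arrays at all 7 times, and for RALFL34 both were below at all 7. RALFL22 and RALFL31 had both root arrays on top at 6 of 7 times. For RALFL33 the roots were below at 4 times and above at 1, which was 3 h, when the shoot signal was lowest. For RALFL24 they were below at 2 times and above at 2, so its mean difference near zero combines times of opposite order.

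**Figure D3:**
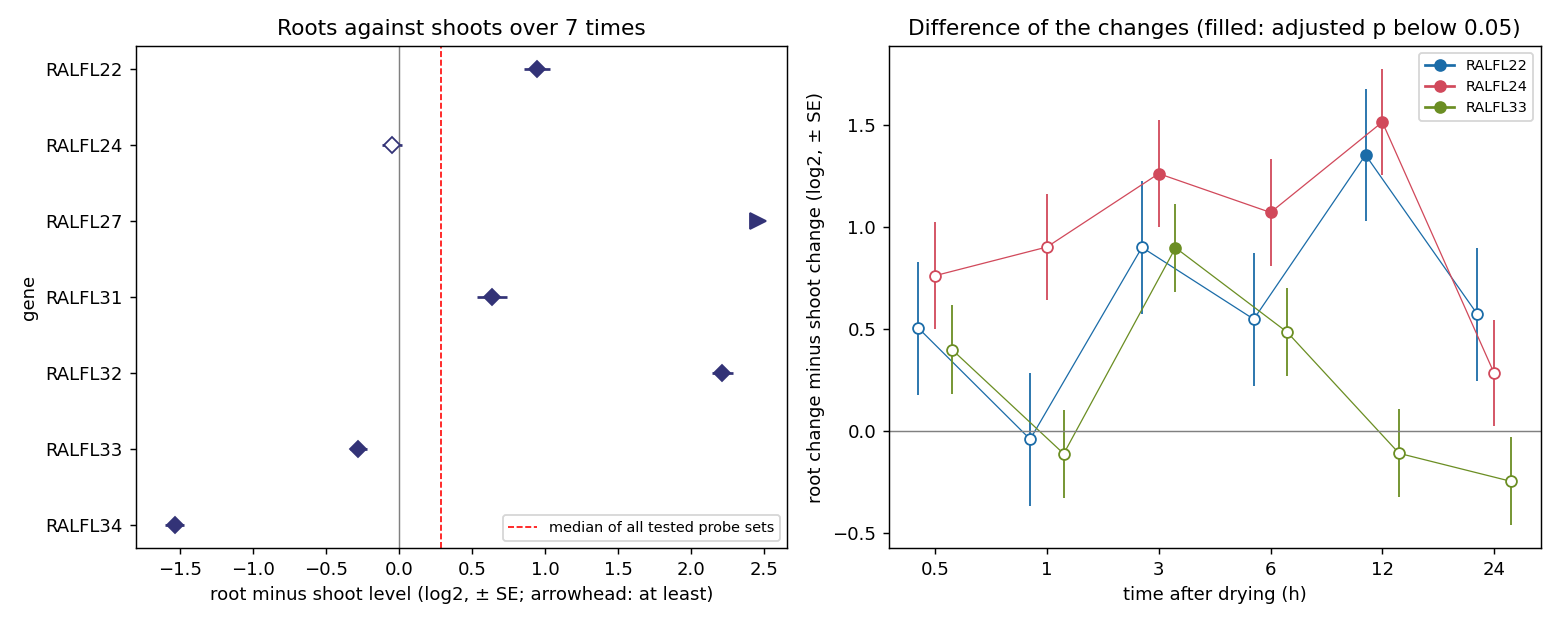
Left, log2 difference of roots against shoots over the 7 times (± SE of limma's model) for each tested RALFL gene, with an arrowhead at the lower bound for RALFL27 and a line at the median of all tested probe sets, 0.29. Right, the root change minus the shoot change from 0.25 h (log2, ± SE) by hours after drying for RALFL22, RALFL24 and RALFL33, filled for an adjusted p below 0.05, where RALFL24 reaches 1.51 and RALFL22 1.35 at 12 h.

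The group means were also put in order, and the arrays of times next to each other in that order were compared. The order was taken from these same arrays, and no share over all probe sets is given. The counts of pairs apart thus describe the arrays, carry no test and do not show that the times differ. RALFL33 in shoots ran from 0.25 h down through 1 h, 0.5 h, 12 h, 24 h and 6 h to 3 h, and in 4 of the 6 neighbouring pairs the arrays did not overlap. RALFL24 in shoots ran from 0.25 h through 24 h, 12 h, 0.5 h, 1 h and 6 h to 3 h, with 3 of 6 pairs apart. RALFL22 in shoots had its highest mean at 0.5 h and its lowest at 3 h, with 2 of 6 pairs apart, and its lowest neighbours in that order overlapped (3 h with 6 h, and 6 h with 12 h). The highest group mean was 3.00 times the lowest for RALFL22 in shoots, 2.91 for RALFL33 and 2.50 for RALFL24, and 2.57, 1.84 and 1.78 for the same genes in roots. RALFL32 had 1.67 in shoots and 2.26 in roots.

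**Figure D4:**
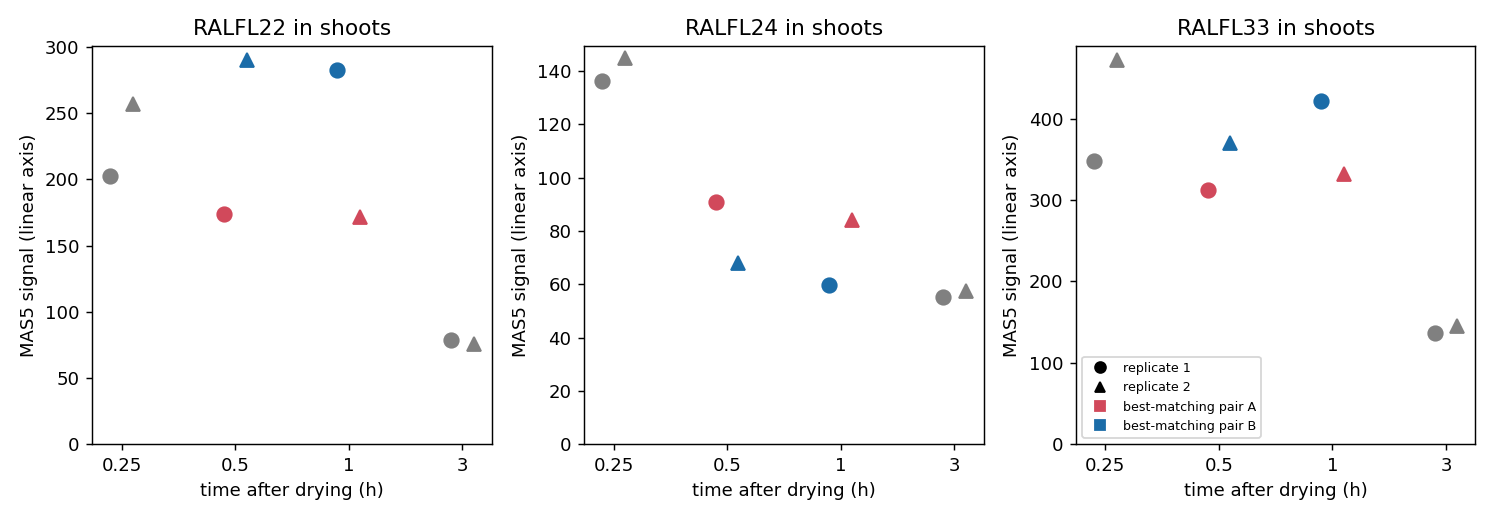
MAS5 signal (linear axis, no unit) of RALFL22, RALFL24 and RALFL33 on the 8 shoot arrays of 0.25 h, 0.5 h, 1 h and 3 h, with circles for replicate 1, triangles for replicate 2 and a colour for each pair of arrays that match best across the 2 early times. For RALFL22 replicate 1 of 0.5 h (174) sits with replicate 2 of 1 h (172), and replicate 2 of 0.5 h (290) with replicate 1 of 1 h (282).

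Across the early shoot arrays the RALFL genes differ in whether they follow the crossed pairs. For RALFL22 the signals of 174 and 172 come from 0.5 h replicate 1 and 1 h replicate 2, and those of 290 and 282 from 0.5 h replicate 2 and 1 h replicate 1. RALFL24 has 90.9 and 84.0 in the first of these pairs and 67.8 and 59.8 in the second. RALFL33 goes with the same pairs, whereas RALFL31 (16.6 and 26.8, 27.4 and 22.1) and RALFL34 (534 and 427, 467 and 600.2) do not. The part of the array pairing in these values was not tested. These 4 arrays were also taken as 1 group and set against 0.25 h in shoots. RALFL24 passed that limma test, and the other tested genes ranged from -0.43 (RALFL32, adjusted p = 0.0885) to 0.09 (RALFL34, adjusted p = 0.733) on the log2 scale. The share of all tested probe sets that passed is not given for this comparison. The 4 arrays also bear on other times through the shared estimate of the spread. Without them the falls of RALFL22 in roots at 3 h (limma adjusted p of 0.027 in place of 0.151) and RALFL33 in shoots at 12 h (0.0388 in place of 0.0603) passed. Rises that then passed were RALFL34 at 12 h in shoots (0.0372) and roots (0.0396), and RALFL31 in roots at 3 h (0.0382) and 12 h (0.0372). The root minus shoot change of RALFL22 at 3 h also passed (0.014). The shares of all tested probe sets that passed without the 4 arrays are not given, so these added calls are no result about the RALFL genes.

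The 4 probe sets that were not tested lay near the bottom of the scale in both tissues. A probe set entered the test if both arrays of at least 1 group were above the array's 30th percentile, which was a signal of 11.3 to 15.2. RALFL18 (AT2G33130) came closest, with a lowest, median and highest root signal of 3.07, 10.6 and 15.4 and with 2 of 14 root arrays above that limit, and in shoots 1.39, 4.21 and 12.5 with 1 of 14 above it. RALFL25 (AT3G25165), RALFL26 (AT3G25170) and RALFL28 (AT4G11510) were above it on no array. Their medians in shoots and roots were 2.84 and 3.44 for RALFL25, 4.07 and 0.721 for RALFL26, and 2.33 and 1.11 for RALFL28. RALFL25 and RALFL26 are neighbours in the genome with 0 protein-coding genes between them. When all probe sets entered the fit, RALFL18 and RALFL26 differed between roots and shoots (limma adjusted p of 3.46e-05 and 8.64e-06), in opposite directions. Mean signals in roots and shoots were 10.5 and 4.76 for RALFL18 and 0.917 and 4.58 for RALFL26. With the filter 87.0% of all tested probe sets passed this comparison, and the share without it is not given. RALFL25 and RALFL28 made 0 calls, with a smallest adjusted p of 0.183. All 4 genes rest on signals with no stated background.

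**Figure D5:**
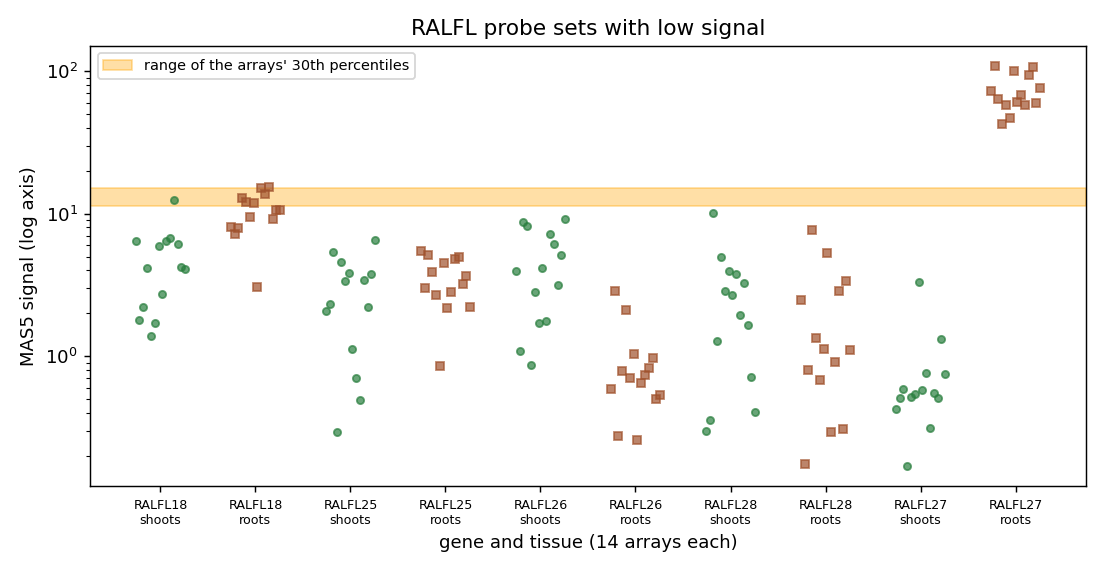
Signals (log axis, no unit) of the untested RALFL18, RALFL25, RALFL26 and RALFL28, and of RALFL27 beside them, with a point for each of the 14 arrays of a tissue and a band for the range of the arrays' 30th percentiles (11.3 to 15.2). RALFL18 reaches 15.4 in roots, RALFL25, RALFL26 and RALFL28 stay below the band, and RALFL27 lies below it in shoots and above it in roots.

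Some RALF peptides act in pollen, and markers of that cell type were looked for in both tissues. Of 9 pollen markers 4 were found in the annotation used, namely ANX1, ANX2, BUPS1 and BUPS2, the receptor kinases that sense RALF peptides in pollen tubes. Summed, they reached 6.46 to 25.3 per array in shoots and 7.24 to 17.8 in roots, and none of them passed the filter on low signals.

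Among the 14 listed receptors and co-receptors 6 were found in the annotation used, and of these FER and THE1 passed the filter on low signals. The 2 kinases together gave 3 rises and 0 falls in 12 shoot comparisons, and 0 rises and 7 falls in 12 root comparisons, beside 19.3% and 5.94% of all comparisons in either direction. THE1, the kinase that senses RALF34, fell at 5 of 6 times in roots, from a mean signal of 168 at 0.25 h to 90.6 at 3 h and 80.1 at 6 h. Its log2 changes at these times were -0.88 ± 0.14 and -1.05 ± 0.14 (limma adjusted p of 0.000897 and 6.88e-05), and in shoots it rose at 6 h by 0.41 (adjusted p = 0.0287). The root change of THE1 was lower than the shoot change by 1.47 ± 0.20 at 6 h. FER, named here after its values were seen, had means of 272 at 0.25 h and 426 at 6 h in shoots and of 602 and 359 in roots, and its root change at 6 h was lower than its shoot change by 1.41 ± 0.27 (limma adjusted p = 0.00129). Both of the 6 h differences and the THE1 falls at 3 h and 6 h were kept with each array left out in turn. The THE1 falls at 1 h, 12 h and 24 h and its shoot rise at 6 h were each lost without at least 1 array, as were the FER calls within a tissue.

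Of the 9 listed cell wall partners 3 were tested, LRX4, LRX5 and PEX3 (AT2G15880), all leucine-rich repeat extensins, and all 5 rises in 18 shoot comparisons were those of PEX3. Its mean signal in shoots was 5.98 at 0.25 h, 22.6 at 0.5 h, 29.3 at 1 h, 56.3 at 3 h, 162 at 6 h, 16.9 at 12 h and 3.09 at 24 h. RALFL22, RALFL24 and RALFL33 had their lowest shoot means at 3 h (77.2, 56.3 and 141). Their means were 83.4, 64.5 and 216 at 6 h, and 89.7, 81.5 and 307 at 12 h. A link between these courses and that of PEX3 was not tested. For PEX3 both shoot arrays of 0.25 h were below their 30th percentiles (13.4 at most), so only bounds are measured. Set against these percentiles, PEX3 was at least 4.44-fold higher at 3 h and at least 12.8-fold higher at 6 h. The bounds were not tested. The limma test used the 0.25 h signals below the percentiles and called the rises at 3 h and 6 h (adjusted p of 4.93e-05 and 2.61e-07). These calls were kept with each array left out, whereas the rises at 0.5 h, 1 h and 12 h were each lost without some arrays. With the 4 early shoot arrays as 1 group PEX3 also passed upward (adjusted p = 0.00436). Over all tested probe sets 5.09% rose in shoots at 0.5 h, 5.17% at 1 h, 14.9% at 3 h, 17.7% at 6 h and 14.7% at 12 h. In roots the list gave 1 fall in 18 comparisons, where 5.94% of all comparisons passed. S1P, MRI (a kinase downstream of FERONIA-type receptors) and CML38 (a calmodulin-like protein) were the 3 tested of 15 listed processing and downstream genes, with 1 fall in 18 shoot comparisons (19.3% of all passed) and 2 falls, both of CML38, in 18 root comparisons (5.94% of all). Of the 35 calls of these 3 lists, tissue differences included, 15 were kept in every fit. Both counts include calls of root against shoot, a comparison that 87.0% of all tested probe sets passed. The MRI call is among these. MRI entered the test through its root arrays alone, with a median shoot signal of 8.44, so its tissue difference is no result of the test.

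The time courses of the RALFL genes were also set against each other and against 10012 other genes, over the 14 group means with each tissue's mean subtracted. These correlations describe 14 points that share arrays and carry no test. RALFL22 and RALFL33 were the most alike pair (r = 0.77, with 0.83 over the 7 shoot means and 0.64 over the 7 root means), and RALFL22 and RALFL31 the least alike (r = -0.69). The genes most like RALFL22 were AT4G31000 (r = 0.95), AT3G24530 and AT3G49220 (r = 0.94 each), and the gene most like RALFL33 was AT1G67470 (r = 0.92). RALFL24 was most like AT1G12500 (r = 0.94), RALFL32 most like AT5G08750 (r = 0.92) and RALFL31 most like AT5G44400 (r = 0.90). The highest values for RALFL27 and RALFL34 were 0.89 (AT5G57785) and 0.87 (AT4G38660). For RALFL27 the 7 shoot means come from arrays below the 30th percentile, so its correlations rest partly on signals with no measured level.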

How the data were processed

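Each deposited value is the linear intensity of 1 probe set on 1 array. MAS5 made these values per the submitters' processing notes, and no version of it is stated there. The 64 control probe sets were left out. From the deposited intensities log2(signal + 1.93) was computed, where 1.93 is the 10th percentile of all signals, so changes of dim probe sets are understated. A probe set was tested if it exceeded its array's 30th percentile on both arrays of at least 1 group (18190 of 22746). Group means, 14 in number, were fitted with limma 3.58.1 (R 4.3.3), with 14 residual degrees of freedom and a trended prior, and the fit was tested on simulated data. Gene names come from the platform annotation, which gives 13513 probe sets 1 gene, 503 several and 8730 none, and the TAIR10.1 gene table served for symbols and neighbours only. The number of arrays limits the precision.

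Named are all RALFL genes, the genes most like each by correlation, and listed pathway genes that passed at most times of a tissue (THE1, PEX3). Other tested list members named beside small counts (FER, LRX4, LRX5, S1P, MRI, CML38) fall outside this rule and were chosen after their values were seen. Genes and lists were chosen with earlier results of these data known. Alternatives changed the pseudocount, filter, normalization, prior, array weights, block, arrays fitted, adjustment and reference, and left out each array in turn. A group left with 1 array is assumed to vary like the others. Promoter and protein motifs were not analysed here.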

Additional observations from a re-analysis of the deposited data

Results flagged for a closer look

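In 5 cases the change from 0.25 h differed between roots and shoots by limma's test of the difference itself, and in each the root value was the higher. RALFL22 differed by 1.35 on the log2 scale at 12 h (adjusted p = 0.00813). RALFL24 differed at 3 h, 6 h and 12 h, by 1.26, 1.07 and 1.51, with adjusted p of 0.00436, 0.00758 and 0.000698. RALFL33 differed by 0.90 at 3 h (adjusted p = 0.0116), a call that was lost without any 1 of 3 arrays. Over all tested probe sets 10.9%, 16.9% and 15.8% differed in either direction at 3 h, 6 h and 12 h.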

How the results depend on the processing

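Of the 32 RALFL calls, 18 were kept in every fit run, and 0 changed direction in any. Both counts include the 6 calls of root against shoot, a comparison that 87.0% of all tested probe sets passed. RALFL27, whose tissue difference is no result of the test, is among these 6. No root call against 0.25 h was kept in every fit. With 1 array left out at a time the number of calls ranged from 10 to 16 in shoots (14 with all arrays), from 0 to 9 in roots (7), from 4 to 7 for the root minus shoot change (5) and stayed at 6 for root against shoot, RALFL27 included. The roots gave 0 calls without roots 0.25 h replicate 1, 3 without roots 0.25 h replicate 2 and 4 without roots 6 h replicate 2. Root calls rose to 11 when p-values were adjusted over all comparisons together and also to 11 when the 4 early shoot arrays (0.5 h, 1 h) were left out, 6 higher and 5 lower in both cases. In the other settings the totals ranged from 11 to 16 in shoots. Shares of all tested probe sets are not given for these alternative fits, so their call totals cannot be set against them.

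With the replicate number as a block the calls were 13 in shoots, 6 in roots, 5 for the root minus shoot change and 6 for root against shoot. The deviations of same-numbered arrays correlated above 0.1 in 1 of 21 pairs of shoot groups and 2 of 21 pairs of root groups. These correlations ran from -0.583 to 0.135 in shoots (median -0.008) and from -0.227 to 0.162 in roots (median 0.032). Same-numbered arrays thus seldom deviated alike, and in the lowest shoot pair they deviated in opposite directions.

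With 2 arrays per group and a floor on dim signals, small changes and changes of the 4 dimmest RALFL genes could not be measured, and MAS5 scaling hides any shift shared by most transcripts.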

Other observations

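Of other secreted signalling peptides only 6 CLE genes were counted here, of which 4 were tested, so other peptide families are not covered. They gave 2 rises and 0 falls in 24 shoot comparisons and 1 rise and 0 falls in 24 root comparisons, no larger a share than the 19.3% and 5.94% of all comparisons that passed in either direction. Over the 7 times 1 was higher and 2 were lower in roots than in shoots, beside 55.4% and 31.6% of all tested probe sets. Alternatives were not run for these genes.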
